A study of Mus musculus with 14 samples.

Results

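Leptin (Lep) and the leptin receptor (Lepr) were followed across 14 expression arrays of sorted mouse mammary cells. The probes were taken as those that the scanner files name Lep or Lepr, which gave 3 of 41174 probes and 2 of 27962 gene names. Lep was chosen by its measured log2 ratios, which rose in the P4 cells of pregnant mice, so its values there are described and not tested. Lepr was included as the receptor of Lep and was not chosen for its own values.

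The arrays hold RNA of mammary cells from FVB/N-J mice, all labelled with Cy5 and hybridised against a Cy3-labelled reference RNA mixed from 11 mouse cell lines. Cells of wild-type virgin mice and of wild-type pregnant mice were sorted by CD24 and CD29 into P4, P5 and P6, with 2 arrays for each of these 6 groups. By the labels P4 is enriched for mammary stem cells and P5 for luminal progenitors, and P6 holds differentiated epithelial cells. They give the same gate, CD24-positive with high CD29, for P4 and for P5, and CD24-low for P6. Virgin mice of the transgenic FVB line L2G85, which carries a luciferase and GFP reporter, gave lineage-negative cells with high GFP (GFPhi, labelled stem-cell-enriched) and with low GFP (GFPlo, labelled depleted), with 1 array each. The study's design compares an enriched class (P4 and GFPhi) with a depleted one (P5, P6 and GFPlo), in virgin and in pregnant mice. The labels give neither the day of pregnancy nor the age of the mice, and they do not say whether the 2 arrays of a group came from separate animals or pools. The p-values therefore measure only the spread between these arrays, which may be technical.

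The defining markers of each labelled population were checked first. Summed over 13 basal and myoepithelial markers, the Cy5 intensity above local background was 869626 to 974281 in virgin P4 and 652902 to 1583010 in pregnant P4, against at most 66922 in P5 and P6 of either condition. The sum over 13 luminal markers was highest in virgin P5, at 620659 to 750597, but 3 of the 13 were well above background on neither array of pregnant P5. Both P6 groups carried fibroblast markers: 9 of them summed to 1303240 to 2169190 in virgin P6 and to 499427 to 1225970 in pregnant P6, against at most 118488 in P4 and P5. P6 is therefore called by its gate here. Arrays had median Cy5 intensities of 70.9 to 196 over local backgrounds of 32 to 34.5, and the 3 arrays of scan 3, replicate 1 of each pregnant group, were read without the extended dynamic range and had 111 to 236 saturated spots. In sorted pools like these, a larger share of cells that express a gene and more RNA per cell cannot be told apart.

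Leptin is a hormone secreted mainly by fat cells in proportion to fat stores, and it acts in the hypothalamus to limit food intake. Its receptor belongs to the class I cytokine receptors, relatives of gp130. Binding of leptin activates the kinase JAK2, which is bound to the long form of the receptor, and through it STAT3, STAT5, the SHP2 phosphatase and insulin receptor substrates, while SOCS3 and the phosphatase PTP1B dampen the signal. In rodents the mammary fat pad surrounds the epithelium, and leptin is also found in milk.

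In RefSeq's GRCm38.p6 annotation Lep lies at chr6:29060221-29073876 with 1 transcript, and Lepr at chr4:101717137-101815352 with 4 transcripts. The scanner files give probe positions on the older mouse build mm7. The Lep probe, A_52_P374882, has 10 spots per array and was placed at chr6:29005380-29005439. Lepr has 2 probes. A_52_P247900 has a single spot and was placed at chr4:101189318-101189377. A_51_P396045 has 10 spots and was placed at chr4:101165774-101167275, so its 60 bases span 1502 bases of genome and cross an intron. Its sequence, in which 1 of the 3 forward reading frames holds no stop, is shown because it joins 2 exons and so reads spliced RNA:
Lepr probe A_51_P396045: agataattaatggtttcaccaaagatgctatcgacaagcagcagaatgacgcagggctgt
Which Lepr splice forms each probe reads cannot be told from the files used here.

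Lep gave a strong signal in the P4 cells of pregnant mice and lay near the background everywhere else. The log2 ratio of Cy5 over Cy3 was 3.92 and 4.78 on the 2 pregnant P4 arrays. It was 0.31 and 0.28 in virgin P4, 0.01 and -0.04 in virgin P5, and 0.00 and 0.04 in virgin P6. In the other pregnant cells it was 0.61 and 0.39 in P5, and 0.21 and 0.01 in P6. The L2G85 arrays read 0.19 in GFPhi and 0.01 in GFPlo. Both pregnant P4 arrays thus stood far above the other 12, whose highest value was 0.61. The gap between pregnant and virgin P4 is what Lep was chosen on.

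Without the reference channel, the group means of the scanner intensities also put pregnant P4 first and pregnant P5 second, and the order below them differed. The mean Cy5 intensity above local background was 4640 and 2950 in pregnant P4. It was 106 and 49.3 in pregnant P5, 69.9 and 17.9 in pregnant P6, and between 11.3 and 45.8 on the 8 virgin arrays. The 10 spots of pregnant P4 replicate 1 ran from 3821 to 5206 and those of replicate 2 from 2384 to 3297, and no spot was saturated on any array. Over spots of one array the SD of the log2 ratio was 0.05 to 0.13, so the probe was read evenly. Lep was well above background, meaning that the scanner software flagged at least 0.5 of its spots so, on 11 of 14 arrays. The exceptions were replicate 1 of virgin P5, replicate 1 of virgin P6, and GFPlo. The reference RNA gave little Lep signal, 9.58 to 47.9 in Cy3.

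**Figure D1:**
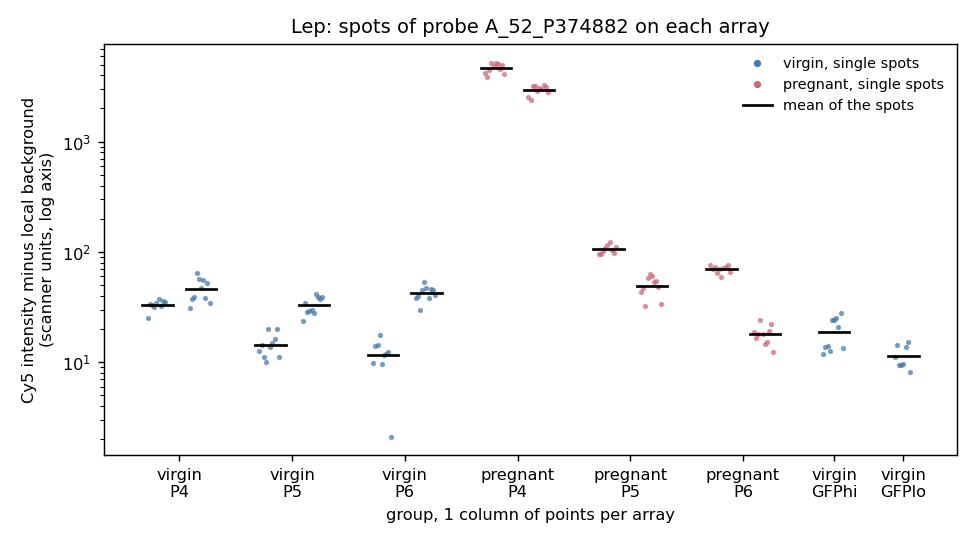
Cy5 intensity minus local background of the Lep probe, in scanner units on a log axis, for each array; points are single spots and bars their mean. Both pregnant P4 arrays, at 4640 and 2950, lie above every other array, the next being pregnant P5 replicate 1 at 106.

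As group means with their SD over 2 arrays, the Lep log2 ratio was 4.35 ± 0.61 in pregnant P4, 0.50 ± 0.15 in pregnant P5 and 0.29 ± 0.02 in virgin P4. GFPhi, with 1 array, followed at 0.19. Pregnant P6 was at 0.11 ± 0.14, virgin P6 at 0.02 ± 0.03, GFPlo at 0.01 and virgin P5 at -0.02 ± 0.04. The first 3 groups in this order did not overlap. GFPhi lay inside the range of pregnant P6, and virgin P6, GFPlo and virgin P5 could not be separated from one another.

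The difference between pregnant and virgin P4 was 4.06 on the log2 scale, or 16.6-fold. It carries no test, because Lep was chosen for it. Within slide 2, which held a virgin and a pregnant P4 array, it was 4.50, and leaving out 1 array at a time gave 3.63 to 4.48. The offset of 50 added to both channels pulls the ratios of dim spots towards 0. With Cy5 alone, an alternative chosen after seeing the data, the difference was 4.80, or 27.9-fold. Pregnant P4 lay 3.85 above pregnant P5 and 4.24 above pregnant P6. On slide 3 these differences were 3.31 and 3.71, and in scan 2 they were 4.39 and 4.77. The enriched class exceeded the depleted class by 4.04 in pregnant mice, and this gap was 3.79 larger than in virgin mice. Of all probes tested, 3.08% were called between pregnant and virgin P4, 20.2% between pregnant P4 and P5, 10.5% between pregnant P4 and P6, 2.38% between the classes in pregnant mice and 0.101% in the difference between the conditions. For Lep, nothing is read from these shares, since the rule used those contrasts.

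The 4 comparisons of Lep that leave out P4 of both conditions were tested with limma, and none passed an adjusted p of 0.05. Pregnant P5 lay 0.52 ± 0.25 (SE, 2 arrays a group) above virgin P5, with both arrays above both virgin ones and an adjusted p of 0.193, where 19.5% of all probes were called. Pregnant P6 differed from virgin P6 by 0.09 with overlapping arrays, where 0.152% of probes were called. Virgin P5 and P6 differed by -0.04, where 14.4% were called. Pregnant P5 lay 0.39 above pregnant P6 (adjusted p = 0.314), where 24.0% were called. Comparisons with virgin P4, whose values entered the choice of Lep, are given with no test: it lay 0.31 above virgin P5 and 0.27 above virgin P6, and the virgin enriched class lay 0.26 above the depleted class. Of all probes 9.75%, 8.97% and 1.41% were called there, from which nothing is read for Lep. The spread that enters these tests includes that of the pregnant P4 arrays. With either of them left out, the P5 difference passed, as it did with the scanner software's own ratio at 1.97 (adjusted p = 0.0165). With slide as a fixed block it was 1.49 (adjusted p = 0.00692). Slide 2 alone held both virgin and pregnant arrays, and its only pregnant array was P4. The 1.49 therefore runs through a pregnant P4 value on which Lep was chosen, and nothing is read from it.

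Since fat cells are the main source of leptin, 20 adipocyte markers were read on the same arrays. In pregnant against virgin P4, 4 of the 20 rose and none fell, with a median difference of 1.28 against -0.03 over all 23643 genes tested, of which 3.48% were called. The 4 were Cidea, a lipid droplet protein (4.89, adjusted p = 0.0298), Lpl, lipoprotein lipase (3.41, adjusted p = 0.00721), Plin4, a lipid droplet coat protein (2.80, adjusted p = 0.0193), and Cd36, a fatty acid carrier (2.43, adjusted p = 0.0213). Pparg, the master regulator of fat cell formation, lay 0.97 and 2.03 above the virgin mean on the 2 pregnant arrays (adjusted p = 0.0722). Cebpa, its partner, differed by 0.53 (adjusted p = 0.685). With a block for the replicate number within each condition, 7 markers rose, where that block called 6317 of 34800 probes. Without pregnant P4 replicate 1 the median difference was 0.32. With slide as a fixed block 6 rose at a median of 0.23, where that fit called 1629 of 34800 probes.

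The 2 pregnant P4 arrays differed by 0.86 in Lep, by more than that in 13 of the 20 markers and by less in 7, among them Plin4, Cd36 and Lpl. Replicate 1 exceeded both virgin P4 arrays in 17 of the 20 and lay below both in 3, with a median of 2.34 above the virgin mean. Replicate 2 exceeded both in 12 and lay below both in 4, with a median of 0.32. Adipoq, which encodes adiponectin, read 59.4 and 63.5 in Cy5 on the virgin P4 arrays, 15676 on pregnant replicate 1 and 87.8 on replicate 2. Plin1, the main lipid droplet coat protein of fat cells, read 73.5 and 82.4, then 3738 and 90.6. Cidec, a droplet fusion protein, read 154 and 128, then 17642 and 194. On these 3 markers replicate 1 stood apart and replicate 2 lay within 0.15 of the virgin mean in log2 ratio, whereas Lep was 3.63 and 4.48 above it. Retn, resistin, and Cfd, adipsin, followed the same course, with log2 ratios 2.59 and 2.42 above the virgin mean on replicate 1 and -0.19 and 0.50 from it on replicate 2. Cfd and Fabp4 were saturated on replicate 1, so their values there are lower bounds, among them that of Fabp4, a fatty acid binding protein, at 1.86 below the virgin mean on replicate 1 and 1.71 above it on replicate 2.

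**Figure D2:**
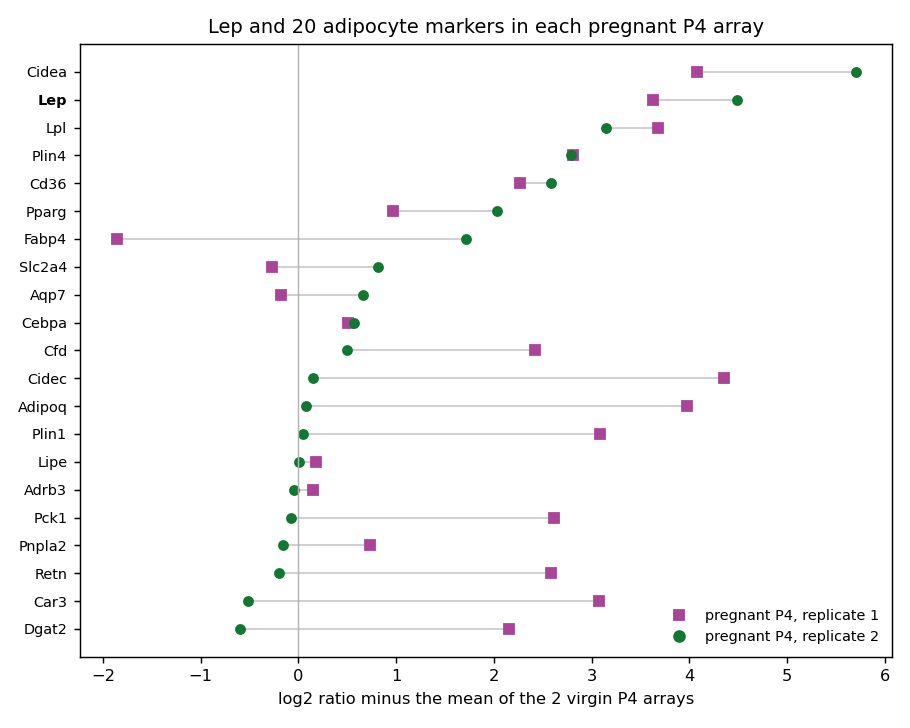
Log2 ratio of Lep and 20 adipocyte markers on each pregnant P4 array minus the mean of the 2 virgin P4 arrays; squares are replicate 1 and circles replicate 2. Lep (3.63 and 4.48), Cidea, Lpl, Plin4 and Cd36 are high on both arrays, while Adipoq, Cidec and Plin1 are high on replicate 1 and near 0 on replicate 2; Cfd and Fabp4 were saturated on replicate 1.

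Summed over the list, the markers were compared across groups. All 20 adipocyte markers were well above background on both arrays of every replicated group except pregnant P6, where 19 were, and none was absent from any group. Their summed Cy5 intensity was 374922 to 380249 in pregnant P4 and 216968 to 387103 in pregnant P5, so those ranges overlapped, while Lep was at 4640 and 2950 in the first and at 106 and 49.3 in the second. Saturated spots make the sums of replicate 1 lower bounds in both groups. Lpl was saturated on pregnant P6 replicate 1 too, so its value and the sum on that array are lower bounds. The median log2 ratio of the 20 markers was 1.47 and 3.68 in pregnant P4 and 0.76 and 1.81 in pregnant P5, so these overlapped too. It was at most 1.25 elsewhere. In virgin cells the sum was 88929 to 95152 in P4, 42721 to 55662 in P5 and 100658 to 181132 in P6. It was 83633 to 123932 in pregnant P6, 37895 in GFPhi and 77190 in GFPlo. In pregnant against virgin P5, Lpl rose by 6.69, Cd36 by 5.59 and Cidea by 4.57 and Dgat2, an enzyme of triglyceride synthesis, fell by 3.96, where 21.0% of genes were called. Lpl and Cidea were saturated on pregnant P5 replicate 1, so their 2 rises are lower bounds. Pregnant P4 exceeded pregnant P5 in Plin4 by 4.44, in Slc2a4, the insulin-responsive glucose carrier, by 4.36 and in Pparg by 1.72, and differed in Lpl by -2.85, a gap that is a lower bound for the same reason. In all, 3 of the 20 were called higher and 1 lower in that comparison, near the 22.0% of all genes called. With a block on replicate number 5 rose and 1 fell in P5, where that block called 13462 of 34800 probes. Under it 5 were higher and 2 lower in pregnant P4 than in pregnant P5, where 13481 of 34801 were called. In P6 none was called, where 0.178% of genes were. Cidea still lay 3.91 and 5.36 above the virgin P6 mean on the 2 pregnant P6 arrays. In pregnant P4 it lay 4.08 and 5.70 above the virgin P4 mean, so its rise was not particular to P4. Of the 20 markers, 5 and 6 exceeded both virgin P6 arrays on these pregnant P6 arrays, and 13 and 10 lay below both. With the block 1 rose there, where 1464 of 34801 probes were called. The part of fat cells in the Lep signal was not tested.

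The placenta makes leptin in some mammals, so 6 trophoblast genes were listed, of which 5 were matched. Their summed Cy5 intensity was 833 to 2379 in pregnant P4 and 664 to 836 in virgin P4. None of the 5 was called between the 2, where 3.48% of all genes were. Markers of other cells that a sort could carry were read too. The 9 endothelial markers summed to 25832 to 30706 in pregnant P4 and 9514 to 14599 in virgin P4. The 7 pericyte markers summed to 18915 to 32478 and 8193 to 9501. The 8 leukocyte markers summed to 9234 to 11642 and 8806 to 14031. No gene of these 3 lists was called in pregnant against virgin P4, where 3.48% of all genes were. Yet the endothelial and pericyte sums, which are not scaled between arrays, did not overlap between the conditions. The median difference was 0.05 for the endothelial and 0.04 for the pericyte markers, against -0.03 over all genes. The endothelial median log2 ratios overlapped, at 2.93 to 4.12 in pregnant P4 and 3.60 on both virgin P4 arrays. Those of the pericyte markers, at 1.95 to 2.94 and 1.68 to 1.94, did not. All endothelial, pericyte and leukocyte markers were well above background in both P4 groups, while 1 of the 5 trophoblast genes was so on no virgin P4 array. The part of these cells in the Lep signal was not tested.

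Lepr was a weak signal throughout and was highest in virgin P6. On probe A_52_P247900 the log2 ratio was 1.13 and 1.04 in virgin P6, 0.53 and 0.85 in virgin P4, and 0.61 and 0.48 in virgin P5. In pregnant cells it was 0.31 and 0.33 in P4, -0.03 and 0.07 in P5, and 0.50 and 0.44 in P6. It was 0.21 in GFPhi and 0.85 in GFPlo. In each of the 3 populations both pregnant arrays lay below both virgin arrays in log2 ratio. How many of all probes do the same was not counted, so nothing is read from this order. In Cy5 intensity it held in P5 and P6 but not in P4, at 53.7 and 16.3 in pregnant and 34.8 and 64.3 in virgin cells. The Cy5 intensity behind these ratios was low, from 11.1 to 90.1 above local background. It was well above background on 11 of 14 arrays, and not on both pregnant P5 arrays and GFPhi. The reference was not well above background on any array, at -2.23 to 9.61 in Cy3, so the ratios set Cy5 against a reference near background. Its variation still enters them: Cy3 was 6.16 and 9.61 in pregnant P5, which lowers the ratios there. Before background subtraction the virgin P6 spots read 104 and 123, and the next highest, virgin P4 replicate 2, read 94.3.

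**Figure D3:**
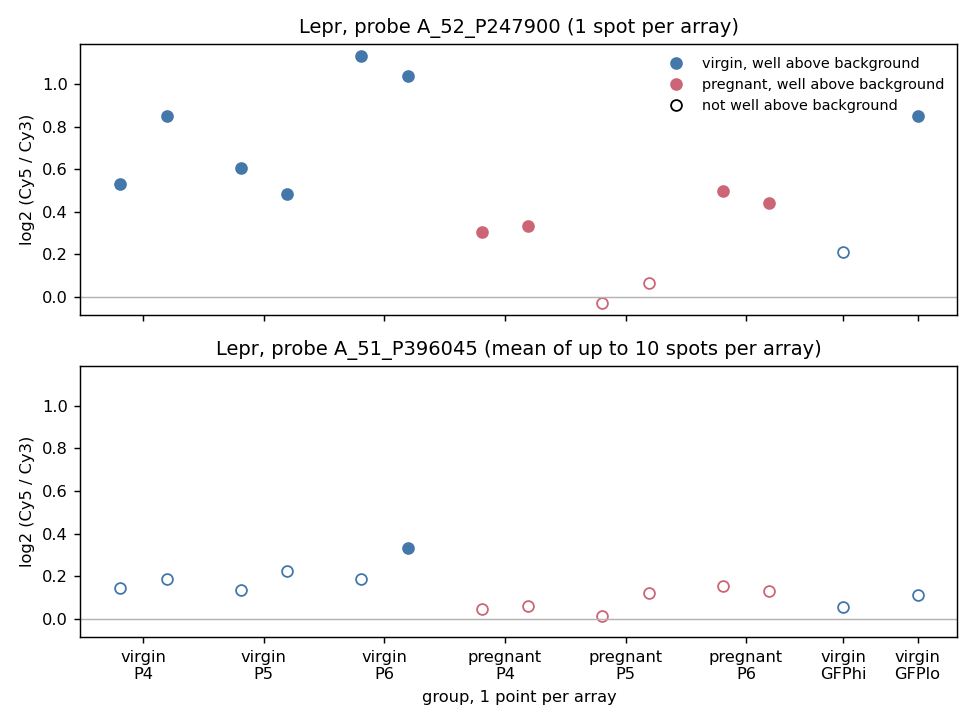
Log2 ratio of Cy5 over Cy3 for both Lepr probes on each array; filled points were well above background in Cy5 and open points were not. On the upper probe virgin P6 is highest, at 1.13 and 1.04, and pregnant P5 lowest, at -0.03 and 0.07; the lower probe was well above background on 1 array.

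Ordered by mean, virgin P6 stood at 1.08 ± 0.07 (SD, n = 2), GFPlo at 0.85, virgin P4 at 0.69 ± 0.23 and virgin P5 at 0.55 ± 0.09. Pregnant P6 was at 0.47 ± 0.04, pregnant P4 at 0.32 ± 0.02, GFPhi at 0.21 and pregnant P5 at 0.02 ± 0.07. GFPlo and the 2 virgin P4 arrays could not be separated, and virgin P4 and P5 overlapped. Virgin P5 and pregnant P6 overlapped too, while pregnant P6 and pregnant P4 did not.

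Of the 12 comparisons of Lepr tested with limma, 3 passed and all 3 involved a P5 group. In these 3, in the order given here, 19.5%, 14.4% and 24.0% of all probes were called. Pregnant P5 fell below virgin P5 by 0.53 ± 0.14 on the log2 scale (SE; adjusted p = 0.0308). Lepr was not well above background in pregnant P5. In Cy5 alone it was 1.36-fold lower there as measured, which did not pass (adjusted p = 0.0541). A floor at the dimmest signal that counted as detected on each array left this fold unchanged. It is an estimate from 2 arrays a group and not a minimum. Virgin P5 was 0.54 ± 0.14 (SE) lower than virgin P6 (adjusted p = 0.0339). Pregnant P5 was 0.45 ± 0.14 (SE) lower than pregnant P6 (adjusted p = 0.0466). In Cy5 alone this gap was 1.25-fold as measured and did not pass (adjusted p = 0.135). In scan 2 alone the 3 differences of log2 ratios were -0.42, -0.55 and -0.38. Each call rests on 1 spot per array and was lost with median centring in place of loess (adjusted p of 0.308, 0.32 and 0.395), without the scan 3 arrays (0.138, 0.0713 and 0.306), and without any single array of the groups compared. With outlier local backgrounds kept as the scanner gave them, virgin P5 lay 0.20 above virgin P6, pregnant P6 0.13 above virgin P6 and virgin P4 0.35 above it, although the scanner flagged no local background of this probe on the P6 and P5 arrays.

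The other 9 comparisons of Lepr did not pass. The widest gap was in P6, at -0.61 ± 0.14 (SE) between pregnant and virgin cells with an adjusted p of 0.206, in a comparison where 0.152% of probes were called. In P4 the difference was -0.37 ± 0.14 (SE; adjusted p = 0.243), and -0.52 within slide 2. Whether the pregnancy effect differed among P4, P5 and P6 was tested with an F test over the 12 wild-type arrays. It did not pass for Lepr (adjusted p = 0.802), where 6.63% of probes did. Virgin P4 differed from virgin P6 by -0.39 (adjusted p = 0.151) and from virgin P5 by 0.14, the latter with overlapping arrays. Pregnant P4 lay 0.30 above pregnant P5 (adjusted p = 0.179), 1.23-fold as measured in Cy5, and differed from pregnant P6 by -0.15. The enriched class differed from the depleted class by -0.29 ± 0.19 (SE) in virgin mice and by 0.07 ± 0.23 in pregnant mice, and these gaps differed by 0.37 ± 0.30, each with overlapping arrays.

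**Figure D4:**
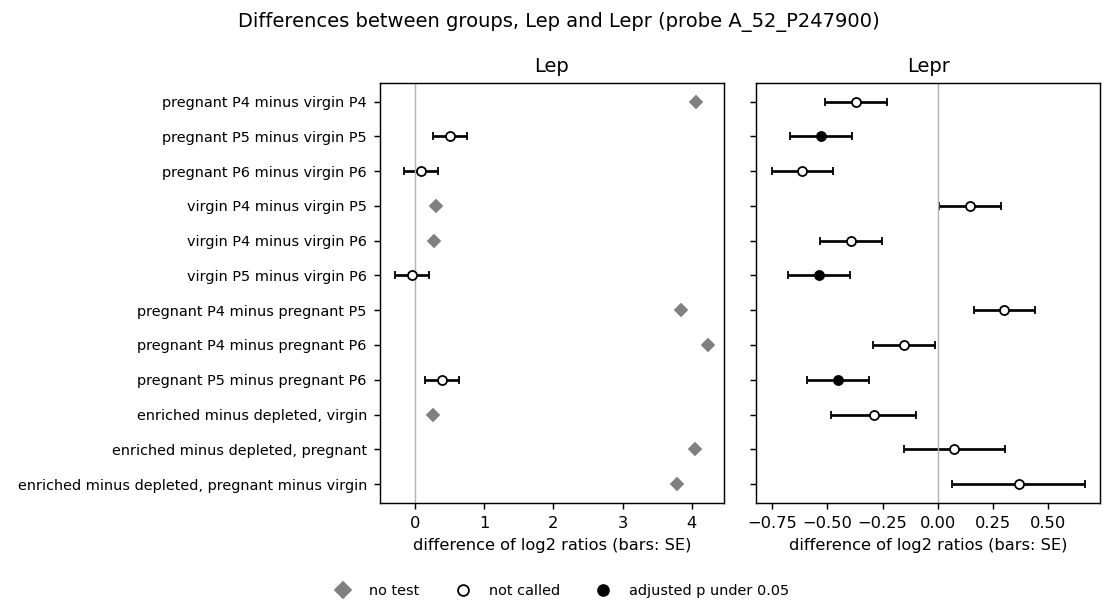
Differences of log2 ratios for Lep (left) and Lepr probe A_52_P247900 (right) in 12 comparisons, with bars of 1 SE; filled points passed an adjusted p of 0.05, open points did not, and grey diamonds carry no test; the horizontal scales of the panels differ. For Lepr the 3 comparisons that passed, at -0.53, -0.54 and -0.45, all hold a P5 group, and 19.5%, 14.4% and 24.0% of all probes passed there.

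The spliced Lepr probe, A_51_P396045, did not pass the filter on dim probes. It was well above background on 1 of 14 arrays, virgin P6 replicate 2, where its log2 ratio was highest at 0.33 and its Cy5 intensity was 28.2. On the other arrays the ratio ran from 0.01, in pregnant P5, up to 0.22, in virgin P5, over Cy5 intensities of 6.09 to 21.3. Its group means also put virgin P6 first, at 0.26 ± 0.10, and pregnant P4 at 0.05 ± 0.01. With no filter its 3 pregnancy effects were -0.11, -0.11 and -0.12, none of which passed (lowest adjusted p = 0.551). At or near background on every other array, this probe says nothing further about the direction in P4 and P5.

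Downstream of the receptor, 28 of 29 listed genes of leptin signalling were matched to a probe and passed the filter. The insulin receptor substrate Irs2 was not matched. In pregnant against virgin P4, 1 of the 28 rose and 2 fell, with a median difference of -0.04 against -0.03 over all genes, of which 3.48% were called. Pik3r1, a regulatory subunit of PI 3-kinase, rose by 1.49 (adjusted p = 0.0185), from Cy5 intensities of 848 and 921 to 4321 and 3273. Socs1, a feedback inhibitor of JAK kinases, fell by 1.97 (adjusted p = 0.0242), and Ptpn2, a phosphatase of JAKs and STATs, fell by 0.85 (adjusted p = 0.0337). The core of the pathway did not pass in P4. Jak2 differed by 0.20, Stat3 by -1.55 (adjusted p = 0.0888), Stat5a by -0.69 and Stat5b by -0.58. The feedback genes Socs3 and Cish differed by -0.52 and -0.81. Ptpn1, which encodes PTP1B, differed by -0.37, Ptpn11, which encodes SHP2, by 0.01, the adaptor Sh2b1 by -0.37 and Irs1 by -0.01. With the replicate block 4 rose and 5 fell, where 6317 of 34800 probes were called.

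In pregnant against virgin P5, 2 genes of the pathway rose and 7 fell, with a median of -0.51 against 0.04 over all genes, of which 21.0% were called. Jak2 fell by 1.18 (adjusted p = 0.0462), Stat3 by 1.59 (adjusted p = 0.0256), Ptpn1 by 1.60 (adjusted p = 0.00322), Ptpn11 by 0.99 (adjusted p = 0.012) and Irs1 by 1.21 (adjusted p = 0.0109). Prkaa1 and Prkaa2, the catalytic subunits of the energy sensor AMPK, went opposite ways, at -1.86 and 2.81, and Akt1 rose by 1.61. In the same comparison 11 of 13 luminal markers fell, with a median of -2.85, and their part in these differences was not tested. In P6 none of the 28 passed, where 0.178% of all genes did. Under the block 4 rose and 15 fell in P5, where 13462 of 34800 probes were called, and 2 fell in P6, where 1464 of 34801 were.

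Pregnant P4 against pregnant P5 called 4 of the 28 higher and 5 lower, where 22.0% of genes were called. Leprot, whose gene neighbours Lepr and whose protein holds the receptor inside the cell, was 1.82 higher in P4 (adjusted p = 0.0021). Its Cy5 intensity was 6521 and 4453 in pregnant P4 and 677 and 687 in pregnant P5. Between pregnant and virgin P4 it differed by 0.87 (adjusted p = 0.154). Prkaa1 was 2.65 higher and Ptpn11 1.85 higher. Prkaa2 differed by -2.89 and Stat5a, the STAT of prolactin signalling in the gland, by -1.92. Against pregnant P6, 4 were higher and 2 lower, where 11.8% of genes were called. With the replicate block these counts were 15 and 6 against P5, where 13481 of 34801 probes were called. Against P6 they were 8 and 6, where 7767 of 34801 were called.

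**Figure D5:**
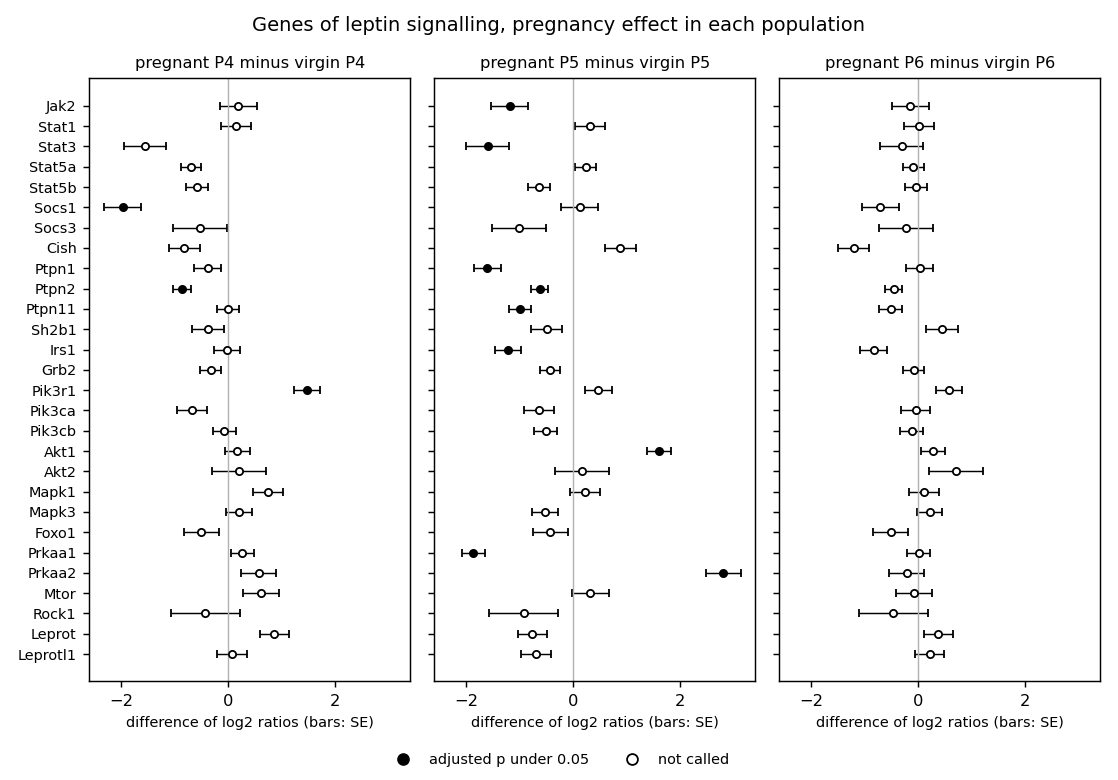
Difference of log2 ratios between pregnant and virgin cells for 28 genes of leptin signalling in P4, P5 and P6, with bars of 1 SE; filled points passed an adjusted p of 0.05. In P4 Pik3r1 rose (1.49) and Socs1 (-1.97) and Ptpn2 (-0.85) fell; in P5 2 rose and 7 fell; in P6 none passed.

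Among 14 receptors of the same cytokine family, 1 rose in pregnant against virgin P4, where 3.48% of all genes were called. Il6st, which encodes gp130, the signalling subunit shared by the receptors of IL-6, LIF and oncostatin M, read 2025 and 3250 in virgin P4 and 30000 and 11882 in pregnant P4. The difference was 2.43 ± 0.41 (SE; adjusted p = 0.0213), and without pregnant P4 replicate 1 no receptor of the list was called. Il6st was 3.90 higher in pregnant P4 than in pregnant P5 and 2.18 higher than in pregnant P6. Osmr, the oncostatin M receptor, was 3.49 higher and Il11ra1 1.37 higher in pregnant P4 than in pregnant P5, while Prlr, the prolactin receptor, differed by -1.32. In all, 4 were higher and 2 lower than in pregnant P5, where 22.0% of genes were called. In pregnant against virgin P5, 1 rose and 2 fell, near the 21.0% of all genes, and in P6, where 0.178% were called, Lifr, the LIF receptor, rose by 1.84. With a block on replicate number 2 rose and 2 fell in P4, 3 rose and 2 fell in P5, and 4 rose in P6. Under it 7 were higher and 2 lower in pregnant P4 than in pregnant P5. In the same order, that block called 6317 of 34800, 13462 of 34800, 1464 of 34801 and 13481 of 34801 probes.

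The promoter of Lep in fat cells is known to bind C/EBP factors, Sp1 and a TATA-binding complex close to the start of transcription. The 250 bases before the RefSeq start, chr6:29059971-29060220 of GRCm38.p6 on the plus strand, are shown with matches to TTGCGCAA (C/EBP), GGGCGG (Sp1) and TATAA in capitals, because the factors that bind there were read on these arrays:
Lep promoter: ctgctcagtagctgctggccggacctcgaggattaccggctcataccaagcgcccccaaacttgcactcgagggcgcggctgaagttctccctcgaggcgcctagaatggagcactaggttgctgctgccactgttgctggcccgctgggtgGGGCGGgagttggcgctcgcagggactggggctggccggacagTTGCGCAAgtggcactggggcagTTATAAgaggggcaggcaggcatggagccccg
Both strands were searched. TTGCGCAA begins 55 bases before the start and occurs in 0.164% of the 32851 RefSeq promoters of this length, GGGCGG begins 98 bases before it and occurs in 32.7%, and TATAA, found on both strands as overlapping matches 32 and 31 bases before it, occurs in 22.8%. The hypoxia core letters ACGTG and GCGTG, held by 16.6% and 28.2% of the promoters, are not in this window. Of the 2 Lepr promoters in the table, neither holds TTGCGCAA. A match is a run of letters and not a measured site.

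Of 13 transcription factors listed as acting on the Lep promoter, 2 rose and 1 fell in pregnant against virgin P4, where 3.48% of all genes were called. Klf15, a fat cell and metabolic regulator, read 156 and 220 in virgin P4 and 2793 and 802 in pregnant P4, a difference of 2.06 (adjusted p = 0.0382). Srebf1, the regulator of fatty acid synthesis, rose by 0.81 (adjusted p = 0.0294). Fosl2, an AP-1 subunit, fell by 2.53 (adjusted p = 0.00395). Cebpa and Pparg are given above. Klf15 and Srebf1 also rose in P5, by 4.40 and 1.65, and in all 3 factors rose and 4 fell there, where 21.0% of all genes were called. The part of these factors in the Lep signal was not tested. Pregnant P4 exceeded pregnant P5 in Cebpd by 1.98 and in Pparg by 1.72, and differed in Srebf1 by -1.45. With the replicate block 4 rose and 3 fell in P4, and 3 rose and 6 fell in P5. Under it 6 were higher and 3 lower in pregnant P4 than in pregnant P5. In the same order, the block called 6317 of 34800, 13462 of 34800 and 13481 of 34801 probes. Without pregnant P4 replicate 1 the median difference between pregnant and virgin P4 was -0.04, against 0.13 with all arrays.

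Hypoxia raises leptin in some cell types, so 14 hypoxia response genes were read. None was called in pregnant against virgin P4, where 3.48% of all genes were, with a median of 0.11. With the replicate block 3 rose, where 6317 of 34800 probes were called. In P5, where 21.0% of all genes were called, 8 rose and none fell, led by Vegfa, the vascular growth factor, at 2.99 ± 0.14 (SE; adjusted p = 1.12e-05). Between pregnant P4 and P5, 6 were lower in P4 and none higher, where 22.0% of all genes were called. Under the block 11 rose in P5, where 13462 of 34800 probes were called. In pregnant P4 Vegfa was lower than in pregnant P5 (-2.24), as were Ndrg1, a stress-response gene, at -1.74, Pdk1, a switch from respiration to glycolysis, at -1.44 and Egln3, an oxygen-sensing hydroxylase, at -1.19.

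Of 13 other adipokines and hormones, none was called in pregnant against virgin P4, where 3.48% of all genes were, although the median difference was 0.75. Adipoq, Retn and Cfd, described above, differed by 2.03, 1.20 and 1.46 with adjusted p of 0.451, 0.514 and 0.767, the last a lower bound because Cfd was saturated on pregnant P4 replicate 1. With the replicate block 4 rose and 3 fell, where 6317 of 34800 probes were called. Without pregnant P4 replicate 1 the median difference was 0.03. In P5 3 rose and 2 fell, where 21.0% of all genes were called. Pthlh, the parathyroid hormone-related protein of breast and milk, rose by 3.88 (adjusted p = 0.000102), Apln, apelin, by 2.93 (adjusted p = 5.32e-05) and Nampt, visfatin, by 2.69 (adjusted p = 0.0275). With a block on replicate number 5 rose and 3 fell in P5, where 13462 of 34800 probes were called. In pregnant P4 against pregnant P5, Apln and Pthlh differed by -1.91 and -1.16.

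The genes whose log2 ratios were most like those of Lep over the 14 arrays, by Pearson's r among 23502 genes and with no p, were Lin7b (0.98), A630077J23Rik (0.98), Clec1b (0.97), Lct (0.97), Pdzd3 (0.97), Hspb6 (0.97), Casq2 (0.96) and Sh3rf2 (0.96). Since 2 arrays stand far from the rest, such an r reads mostly the gap between pregnant P4 and the other arrays. Ranked by Spearman's rho the closest of the 8, Hspb6, had a rho of 0.78. Casq2, calsequestrin of the heart, was 2.91 higher in pregnant than in virgin P4, Pdzd3 2.39, Sh3rf2 1.88 and Lct, lactase, 1.80. Hspb6, a small heat shock protein of muscle, was 1.37 higher, and Lin7b 1.18. For Lepr the closest were Olfr56 (0.92), Gata5 (0.90), Ror1 (0.89), Dtwd2 (0.89), Map3k8 (0.88), AF012177 (0.86), Epc1 (0.86) and Sh3rf1 (0.86). Map3k8, a kinase of inflammatory signalling, had a mean ratio of 2.92 in virgin P6 and 0.02 in pregnant P5, and Ror1, a receptor tyrosine kinase, 1.40 and -0.15. Lepr reached 1.08 and 0.02 there. All arrays share the reference RNA and 5 slides.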

How the data were processed

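The deposited scanner files hold, per spot and channel, mean and local background intensity on a linear scale, with flags that have no unit, and per the file headers the software's log10 ratio of Cy5 over Cy3. Agilent Feature Extraction 9.5.3.1 read the scans, per the submitters' processing notes. A table of the whole series, deposited too, gives these ratios as log2 (r of 0.990 to 1.000 per array, medians -0.0182 to 0.102, not centred).

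Intensities were processed in R 4.3.3 with limma 3.58.1: outlier local backgrounds replaced by the array's median, normexp with an offset of 50, loess within arrays, control and outlier spots left out, spots of a probe averaged. The 34801 probes tested are those well above Cy5 background throughout 1 or more of the 6 groups with 2 arrays. A gene list takes each gene's brightest probe; a RefSeq table named 23082 probes through an accession, 6582 through a symbol and 3073 through a synonym, while 8437 kept the name in the file. A mean per group over 12 arrays (6 residual degrees of freedom) and per class and condition over all 14 (10) was fitted with lmFit and eBayes and adjusted by Benjamini-Hochberg over all probes, and the code was tested on simulated data.

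The arrays lay on 5 slides read in 3 scans. The deviations of same-numbered arrays from their group means correlated at 0.305 to 0.688 within a condition, where they shared a scan, and at -0.209 to 0.146 across conditions, so the numbers pair arrays within a condition.

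The members and lists were chosen with earlier results of these data known. Always named were all Lep and Lepr probes, 12 signalling genes and 8 adipocyte markers; added were up to 4 called genes per list with the largest difference between pregnant and virgin P4 or between pregnant P4 and P5, and the 8 genes most like each member. Other genes were named after their values were seen. Alternatives covered the background, normalization, filter, batches, replicate number and each array left out. Cy5 alone, and the lists without pregnant P4 replicate 1 and without scan 3, were added after seeing the data.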

Additional observations from a re-analysis of the deposited data

How the results depend on the processing

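The difference of Lep between pregnant and virgin P4, on which Lep was chosen, ran from 3.63 to 4.80 over 30 alternatives, the latter with Cy5 alone. This range describes the chosen values and is no support for the rise. The excess of its pregnant class difference over the virgin one was 2.71 with the scanner's own ratio and with the deposited table, against 3.79. Between pregnant and virgin P5 Lep passed with those 2 sources (1.97 in both), with slide as a fixed (1.49) or random (0.84) block and with Cy5 alone (0.72). The slide blocks link the conditions through pregnant P4 replicate 2, wholly when fixed and in part when random. Lep was chosen on that array, so nothing is read from these 2 fits. Its difference between pregnant P5 and P6 (0.39) passed with slide as a fixed block. In P6 the pregnancy difference of Lep turned to -0.012 without scan 3 and to -0.03 within scan 2, and between virgin P5 and P6 it was 0.01 within slide 1.

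The calls of Lepr were less stable. Pregnant against virgin P5 was lost with median centring (-0.53), local backgrounds as given (-0.55), slide as a fixed block (-0.53), without scan 3 (-0.48), with Cy5 alone (-0.44) and with only the arrays compared (-0.53). Virgin P5 against P6 was lost with median centring (-0.60), without scan 3 (-0.54) and with only the arrays compared (-0.54), and turned to 0.20 with local backgrounds as given. Pregnant P5 against P6 was lost with median centring (-0.46), local backgrounds as given (-0.48), without scan 3 (-0.38), with Cy5 alone (-0.32) and with only the arrays compared (-0.45). Local backgrounds as given also turned pregnant against virgin P6 to 0.13, virgin P4 against P6 to 0.35, and the class differences to 0.0050 (virgin), -0.0026 (pregnant) and -0.0076 (their difference). Median centring turned the pregnant class difference to -0.079. The scanner's ratio called virgin P4 against P6 (-1.35) and pregnant P4 against P5 (2.64), the deposited table called the latter (2.76) and pregnant against virgin P6 (-2.59), and both put pregnant P4 against P6 at 0.068. Within batches virgin P4 against P5 was -0.08 on slide 1, and the virgin class difference was 0.09 on slide 2. The cause was not tested. A filter on both channels left Lepr without a value.

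Leaving out 1 array at a time gave 0.41 to 0.63 for Lep in P5 and -0.012 to 0.19 in P6. For Lepr it gave -0.59 to -0.46 in P5, -0.60 to -0.48 for virgin P5 against P6, -0.50 to -0.40 for pregnant P5 against P6, -0.017 to 0.31 for virgin P4 against P5 and -0.017 to 0.16 for the pregnant class difference. The call in P5 was lost without any of its 4 arrays, that of virgin P5 against P6 also without either pregnant P4 array, and that of pregnant P5 against P6 without any of 10 arrays.

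With the replicate number as a block within each condition no call of Lep or Lepr changed: Lepr differed by -0.53 between pregnant and virgin P5. That block raised the probes called from 1072 to 6317 in P4, from 6784 to 13462 in P5 and from 53 to 1464 in P6, while median centring called 216, 2895 and 5 and shifted the median of all probes in P4 to 0.13. Both Lepr probes lie close to background, which limits what these arrays can show of the receptor.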
